A study of Homo sapiens with 9 samples.

Results

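Described here are 10 genes of the transforming growth factor beta (TGF-beta) pathway in human breast epithelial cells that express mutant ERK2: the ligand genes TGFB1 and TGFB2, the receptor genes TGFBR1 and TGFBR2, the latency protein genes LTBP1, LTBP2, LTBP3 and LTBP4, and the signal transducer genes SMAD3 and SMAD7. They were taken by gene symbol from the array rows that carry a single symbol, and all 10 were found, each with 1 row, among 22411 genes measured. The cells were MCF-10A, an established non-tumorigenic line, with a doxycycline-inducible (Tet-on) construct. There were 3 arrays of cells expressing D319N ERK2, 3 of cells expressing Y261A ERK2 and 3 of cells with the vector control. Doxycycline was used in all 3 groups, including vector, and RNA was taken after 7 days of growth in medium with 5% horse serum and 20 ng/ml EGF. ERK2 is the last kinase of the RAS-RAF-MEK cascade. D319N lies in its common docking domain, which holds partners with a D motif, and Y261A lies in the pocket that holds the DEF motif of substrates. The comparisons ask which transcripts differ between each mutant and vector, and between the mutants. None of the 3 groups was given wild-type ERK2. In a difference from vector, added ERK2 and the changed docking site therefore cannot be told apart. The labels do not say whether a line is a clone or a pool, or whether replicates came from separate cultures. P-values therefore measure only the spread between these arrays, which may be technical.

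TGF-beta is secreted in a latent form, in which the cleaved propeptide still encloses the ligand dimer. Latent TGF-beta binding proteins (LTBPs) attach this complex to fibronectin and fibrillin fibres of the matrix, from which integrins, proteases and thrombospondin can release the ligand. The freed ligand binds the type II receptor, which activates the type I receptor. That receptor phosphorylates SMAD3 and its relative SMAD2, while SMAD7 inhibits the receptor and is itself induced by the pathway. In breast epithelial cells TGF-beta is known for arresting growth and for promoting epithelial-mesenchymal transition.

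Levels are given as log2 RMA signal, so that 1 unit is a doubling, and each row's level is comparable between arrays but not with the level of another gene. Replicate arrays correlated at 0.9957 to 0.9977 in D319N, 0.9946 to 0.9982 in Y261A and 0.9977 to 0.9986 in vector. D319N replicate 2 and Y261A replicate 3 deviated together from their group means (r = 0.60 over all genes). D319N replicate 2 was the lowest D319N array for 8 of the 9 members that passed the test in D319N cells, and Y261A replicate 3 was the lowest or tied lowest Y261A array for 8 of the 9. How often these arrays were lowest over all genes was not counted, so this order is not particular to the members. With both arrays left out, 9 members passed between D319N and vector, 1 between Y261A and vector, and 9 between D319N and Y261A. These member counts equalled those with all arrays. Calls over all genes, in the same order, rose from 3718 to 7979, from 79 to 157 and from 3281 to 6259. The 7 measured epithelial markers of 10 listed were above the mean of the background probe sets (4.85) in every group. Of these 7, 5 fell in D319N against vector, beside 7.66% of all genes, and none passed in Y261A in limma. In Y261A all 7 were at an unadjusted p under 0.05, beside 10.4% of all genes. There KRT14 (0.34) and ITGB4 (0.19) were higher than in vector and the rest lower. The summed linear signal of the 7 was 5875 to 6743 in D319N, 9199 to 10284 in Y261A and 11325 to 11872 in vector. KRT5, at a mean of 12.78 in vector, weighed most in this sum.

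In D319N cells 9 of the 10 genes rose against vector and LTBP4 did not pass the test. Of all genes 8.93% rose and 7.66% fell (2002 and 1716 of 22411), at an adjusted p under 0.05 in limma. That balance turned with array weights (4459 rose and 7172 fell) and without D319N replicate 2 and Y261A replicate 3 (3527 rose and 4452 fell). LTBP1 and TGFB2 at least doubled, TGFB1, TGFBR1 and LTBP2 differed by 1.56 to 1.70-fold, and SMAD3, TGFBR2, SMAD7 and LTBP3 by 1.18 to 1.38-fold. On all 3 D319N arrays each of these 9 genes lay above all 3 vector arrays, as did 15.1% of all genes. The median difference of the 10 genes was 0.56, beside -0.03 for all genes. Because the genes were chosen with earlier results of these data known, these counts describe the set and are not a test of it.

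**Figure D1:**
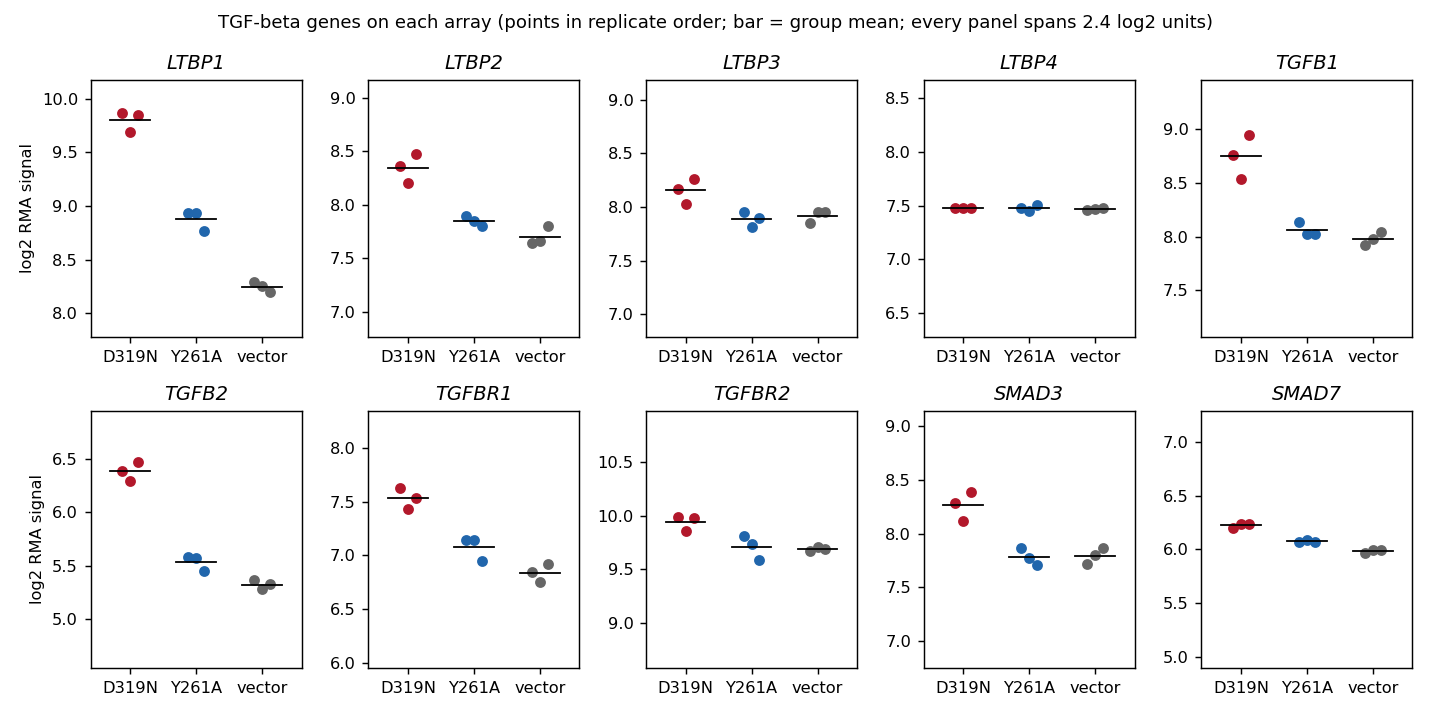
Log2 RMA signal (vertical axis) of the 10 genes on each array, with D319N, Y261A and vector from left to right. Points are arrays in replicate order, bars are group means (n = 3), and every panel spans the same range. LTBP1 shows 3 separate levels, and LTBP4 is level across the 9 arrays.

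LTBP1, which tethers latent TGF-beta to the matrix, had the largest differences of the set. Its signal was 9.87, 9.69 and 9.85 on the D319N arrays, 8.94, 8.94 and 8.77 on the Y261A arrays, and 8.29, 8.26 and 8.20 on the vector arrays. The 3 groups did not overlap, with D319N highest and vector lowest. Against vector LTBP1 rose 2.94-fold in D319N cells (log2 1.55 ± 0.06 SE, adjusted p = 1.30e-05). In Y261A cells it rose 1.55-fold (log2 0.63 ± 0.06, adjusted p = 0.0158), and it was the only member that passed in that comparison. D319N exceeded Y261A by 1.90-fold (log2 0.92 ± 0.06, adjusted p = 0.000211). By the size of the rise LTBP1 ranked 46 of 22411 genes in D319N against vector and 8 of 22411 in Y261A against vector, comparisons that share the vector arrays. The call in Y261A cells was lost without Y261A replicate 1 (adjusted p = 0.0709) or 2 (0.109), or vector replicate 1 (0.0722) or 2 (0.103), while the log2 difference was 0.60 to 0.69 whichever array was left out.

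LTBP1 is known to be transcribed as a long form from an upstream start and as a short form from a downstream start, and the single row does not tell the forms apart. The 250 bases before the upstream start and before 1 of 2 downstream starts are shown with those of TGFB1 and TGFB2, since these are the members with the largest rises in D319N cells. They come from RefSeq on GRCh38.p14, which held start windows for all 10 members, and are written 5′ to 3′ on the gene's strand. Capitals mark CAGACA, the SMAD-binding CAGA sequence, found on either strand.
LTBP1 upstream start, chr2:32946703-32946952 (+): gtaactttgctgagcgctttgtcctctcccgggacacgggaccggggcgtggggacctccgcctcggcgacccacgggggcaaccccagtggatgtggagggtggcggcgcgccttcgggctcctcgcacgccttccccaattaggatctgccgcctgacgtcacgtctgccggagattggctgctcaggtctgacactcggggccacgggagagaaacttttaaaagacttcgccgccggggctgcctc
LTBP1 downstream start, chr2:33134119-33134368 (+): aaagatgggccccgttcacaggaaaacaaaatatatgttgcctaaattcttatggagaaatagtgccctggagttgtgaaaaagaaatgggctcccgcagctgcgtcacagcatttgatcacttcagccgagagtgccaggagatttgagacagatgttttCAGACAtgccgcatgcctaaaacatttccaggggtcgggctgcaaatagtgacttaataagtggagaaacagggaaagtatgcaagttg
TGFB1, chr19:41353923-41354172 (-): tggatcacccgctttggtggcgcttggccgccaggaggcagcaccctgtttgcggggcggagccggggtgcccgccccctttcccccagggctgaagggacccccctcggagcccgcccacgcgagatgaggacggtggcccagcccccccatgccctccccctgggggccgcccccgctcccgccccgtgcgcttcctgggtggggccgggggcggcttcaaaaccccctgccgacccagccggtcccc
TGFB2, chr1:218345086-218345335 (+): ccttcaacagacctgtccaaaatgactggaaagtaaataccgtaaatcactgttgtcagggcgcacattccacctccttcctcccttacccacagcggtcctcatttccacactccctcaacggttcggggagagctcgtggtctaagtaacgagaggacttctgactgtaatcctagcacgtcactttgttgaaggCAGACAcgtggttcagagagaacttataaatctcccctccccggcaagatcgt
CAGACA began 89 bases before the downstream LTBP1 start and 53 bases before the TGFB2 start, and neither the upstream LTBP1 window nor the TGFB1 window held it. The table holds another downstream LTBP1 start, not printed here, whose window at chr2:33134346-33134595 overlaps that of the start shown and also held the sequence, 121 bases before its start. Of the 28 start windows of the 10 genes, some of which overlap, 7 held CAGACA, and 13.6% of 35116 windows of the same length in the table did. These 7 windows belong to 5 genes, LTBP1, TGFB2, TGFBR1, SMAD3 and LTBP4, the member that did not pass in D319N cells. The AP-1 sequence TGAGTCA, whose reverse complement is TGACTCA, was in 1 of the 28 windows, at a SMAD3 start, and in 4.20% of all windows. The windows also differed in base composition, with 76.8% G or C for TGFB1 and 50.4% for TGFB2. A match describes the letters alone.

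Both ligand genes rose in D319N cells. TGFB2, the isoform prominent in development, had 6.39, 6.29 and 6.47 on the D319N arrays, 5.58, 5.57 and 5.45 on the Y261A arrays, and 5.37, 5.28 and 5.33 on the vector arrays. The order was D319N, Y261A and vector with no overlap, and the vector mean was 0.48 above the mean of the background probe sets. TGFB2 rose 2.08-fold in D319N against vector (log2 1.06 ± 0.06 SE, adjusted p = 3.79e-05) and was 1.80-fold higher in D319N than in Y261A (log2 0.84, adjusted p = 0.000171). The Y261A difference from vector, log2 0.21 with a 95% interval of 0.08 to 0.34, did not pass (adjusted p = 0.247).

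TGFB1, the most widely expressed isoform, had 8.76, 8.54 and 8.95 on the D319N arrays, 8.13, 8.03 and 8.02 on the Y261A arrays, and 7.92, 7.97 and 8.04 on the vector arrays. All D319N arrays lay above the other 6, and Y261A overlapped vector. The spread was wider in D319N (SD 0.21) than in Y261A (SD 0.06) or vector (SD 0.06). TGFB1 rose 1.70-fold in D319N against vector (log2 0.77 ± 0.10 SE, adjusted p = 0.00179), and Y261A against vector gave log2 0.08, with an interval of -0.15 to 0.31 (adjusted p = 0.765). TGFB3, the remaining isoform and no member of the set, averaged 5.25 in D319N, 5.35 in Y261A and 5.31 in vector. These means lay 0.40 to 0.50 above the mean of the background probe sets, so its row may not show a change.

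Of the receptor genes, TGFBR1 moved more than TGFBR2. TGFBR1, the type I receptor kinase, had 7.63, 7.43 and 7.53 on the D319N arrays, 7.15, 7.15 and 6.95 on the Y261A arrays, and 6.84, 6.75 and 6.92 on the vector arrays. No groups overlapped, although Y261A replicate 3, at 6.95, was close to the highest vector array, at 6.92, and the other Y261A arrays had an identical value. TGFBR1 rose 1.62-fold in D319N against vector (log2 0.69 ± 0.07 SE, adjusted p = 0.000881) and was higher in D319N than in Y261A (log2 0.45, adjusted p = 0.00774). Y261A against vector gave log2 0.24, with an interval of 0.07 to 0.42, and did not pass (adjusted p = 0.327).

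TGFBR2, the ligand-binding type II receptor, had 9.99, 9.86 and 9.97 on the D319N arrays, 9.81, 9.73 and 9.58 on the Y261A arrays, and 9.67, 9.71 and 9.69 on the vector arrays. Y261A spanned the whole vector range, and D319N lay above both. The rise in D319N was 1.19-fold (log2 0.25 ± 0.06 SE, adjusted p = 0.0304), and D319N against Y261A gave log2 0.23 (adjusted p = 0.0450). Both calls lay near the threshold. Whichever array was left out, the log2 difference was 0.22 to 0.29 against vector and 0.17 to 0.28 against Y261A. The first call was lost without D319N replicate 1 or 3, Y261A replicate 2 or any vector array (adjusted p = 0.0538 to 0.106), and the second was lost without any array other than D319N replicate 2 or Y261A replicate 1 (adjusted p up to 0.147).

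Among the other latency genes, LTBP2 rose clearly, LTBP3 rose slightly and LTBP4 did not pass. LTBP2, a microfibril protein that is known not to bind latent TGF-beta, had 8.36, 8.20 and 8.48 on the D319N arrays, 7.90, 7.85 and 7.80 on the Y261A arrays, and 7.64, 7.67 and 7.80 on the vector arrays. D319N was above the other 6 arrays, and the lowest Y261A and highest vector arrays were equal at 2 decimals. LTBP2 rose 1.56-fold in D319N against vector (log2 0.65 ± 0.07 SE, adjusted p = 0.00118) and exceeded Y261A by log2 0.50 (adjusted p = 0.00497). Y261A against vector gave log2 0.15, with an interval of -0.03 to 0.32 (adjusted p = 0.565).

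LTBP3, which binds latent TGF-beta and assists its secretion, had 8.17, 8.03 and 8.26 on the D319N arrays, 7.95, 7.82 and 7.89 on the Y261A arrays, and 7.85, 7.95 and 7.95 on the vector arrays. D319N lay above the others by a small margin, and vector replicates 2 and 3 and Y261A replicate 1 had an identical value. The rise was 1.18-fold (log2 0.24 ± 0.06 SE, adjusted p = 0.0468), and it passed in 1 of the 9 fits that left out an array, the one without D319N replicate 2 (adjusted p up to 0.152 in the others). D319N against Y261A gave log2 0.27 (adjusted p = 0.0331), a call lost without D319N replicate 1 or 3, Y261A replicate 2 or 3, or vector replicate 2 or 3 (adjusted p = 0.0551 to 0.109).

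LTBP4, an elastic fibre protein that binds latent TGF-beta less well than LTBP1 and LTBP3, ran from 7.45 to 7.51 over all 9 arrays. Its value was identical on 1 array of each group, at 7.47. The difference from vector was log2 0.01 in D319N, with an interval of -0.04 to 0.05 (adjusted p = 0.790), and log2 0.01 in Y261A, with the same bounds to 2 decimals (adjusted p = 0.896). Median polish, which summarises the probes of a row, can return equal values, so the spread of this row may be understated.

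Both SMAD genes rose in D319N cells. SMAD3, the receptor-activated transcription factor, had 8.29, 8.12 and 8.39 on the D319N arrays, 7.86, 7.78 and 7.71 on the Y261A arrays, and 7.72, 7.80 and 7.86 on the vector arrays. D319N stood above the other 6 arrays, among which Y261A and vector covered nearly the same range. SMAD3 rose 1.38-fold in D319N against vector (log2 0.47 ± 0.08 SE, adjusted p = 0.00575), and D319N against Y261A gave log2 0.48 (adjusted p = 0.00656). In Y261A the difference from vector was log2 -0.01, with an interval of -0.19 to 0.17 (adjusted p = 0.972).

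SMAD7, the inhibitory SMAD, had 6.19, 6.24 and 6.24 on the D319N arrays, 6.07, 6.09 and 6.07 on the Y261A arrays, and 5.96, 5.99 and 5.99 on the vector arrays. The 3 groups were separate but close together, and 2 Y261A arrays had an identical value. SMAD7 rose 1.18-fold in D319N against vector (log2 0.24 ± 0.02 SE, adjusted p = 0.000267) and exceeded Y261A by log2 0.15 (adjusted p = 0.00306). In 1 alternative, added after seeing the data, each row with tied replicate values was given at least the median spread of rows without ties. With the prior of the reported fit kept, neither call then held (adjusted p = 0.0950 and 0.262). Each call was lost in 2 of the 12 alternatives beyond leaving out 1 array, this one included (adjusted p up to 0.0950 and 0.301). The other was planned. Y261A against vector gave log2 0.09, with an interval of 0.05 to 0.14 (adjusted p = 0.175).

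In Y261A cells, then, 1 of the 10 genes rose against vector, LTBP1, where 0.138% of all genes rose and 0.214% fell (31 and 48 of 22411). At an unadjusted p under 0.05, as 10.4% of all genes were, there were 4 members, LTBP1, TGFB2, TGFBR1 and SMAD7, and these were also the 4 that lay above vector on all 3 Y261A arrays, as did 4.11% of all genes. The median difference of the set was 0.09, beside 0.00 for all genes. Between the mutants, 9 of the 10 genes were higher in D319N than in Y261A, where 9.92% of all genes were higher and 4.72% lower. All 3 D319N arrays lay above all 3 Y261A arrays for these 9 genes and for 15.5% of all genes, and the median difference was 0.47 beside -0.02 for all genes. The share of calls over all genes that were higher was 67.8% between D319N and Y261A. It was 55.0% after a further quantile normalization, 77.9% with arrays centred on their median, 51.6% without D319N replicate 2 and Y261A replicate 3, and 41.7% with array weights. Between Y261A and vector it was 39.2%, beside 58.2% after the quantile normalization and 50.3% without those arrays. Both mutants are set against the same vector arrays, so their differences from vector are not independent of each other.

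**Figure D2:**
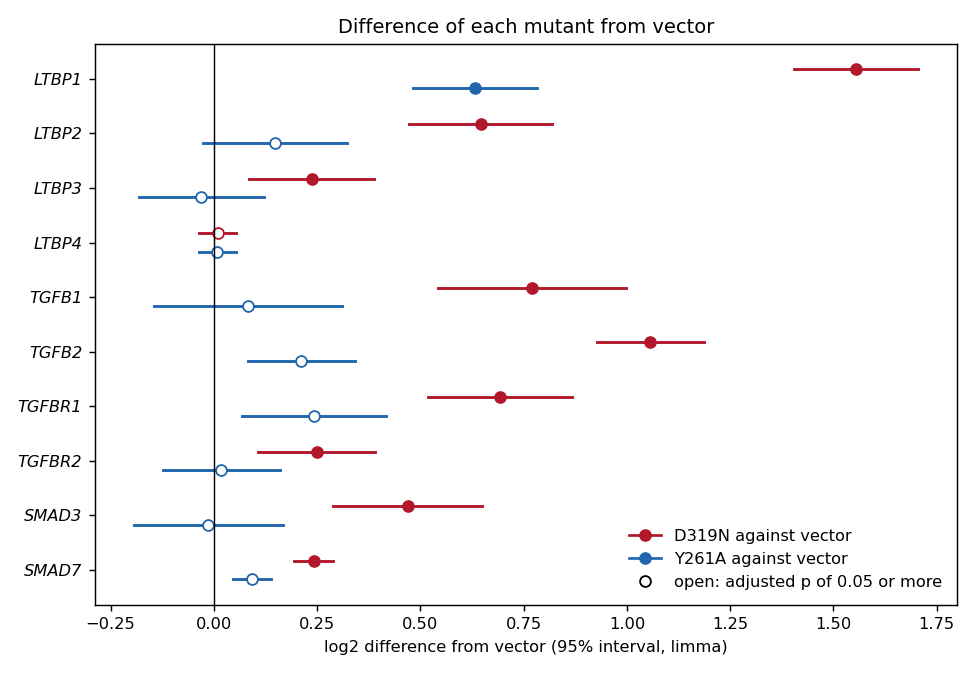
Log2 difference from vector (horizontal axis) of the 10 genes in D319N and Y261A, with 95% intervals from limma that are not adjusted for the number of genes. Filled points passed at an adjusted p under 0.05. Among the Y261A points only LTBP1 is filled, at 0.63 beside 1.55 in D319N.

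Genes that store or release latent TGF-beta gave many calls in D319N cells. Of 21 measured, 14 rose and none fell against vector, where 8.93% of all genes rose and 7.66% fell, with a median of 0.52 beside -0.03 for all genes. ITGAV, the alpha v integrin chain that grips the latent complex, was at 9.86, 9.81 and 9.86 in D319N, 8.62, 8.62 and 8.45 in Y261A, and 8.37, 8.29 and 8.27 in vector. It rose 2.90-fold in D319N against vector (log2 1.53 ± 0.05 SE, adjusted p = 6.11e-06). All 5 listed beta chains also rose, among them ITGB6 (0.74), which pairs with ITGAV to release TGF-beta in epithelia, ITGB8 (0.52) and ITGB1 (0.65), named after their values were seen. Of the matrix genes, FN1 (fibronectin) rose by log2 4.90 and FBN1 (a fibrillin) by log2 1.16, while FBN2, another fibrillin (0.30), EMILIN1 (-0.19) and BGN (-0.11), named after their values were seen, did not pass. Rises were also found for DCN (2.42), which encodes the TGF-beta-binding proteoglycan decorin, and the protease gene PLAU (0.81). In vector DCN (5.01) and FBN1 (5.01) averaged near the background mean (4.85), which limits how far their folds can be read.

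Of the same 21 genes, 3 rose in Y261A cells, FN1 (2.17), DCN (0.56) and ITGB6 (0.44, adjusted p = 0.0250), beside 0.138% of all genes. ITGAV did not pass there (log2 0.25, adjusted p = 0.147). Between the mutants 14 were higher in D319N and 1 was lower, beside 9.92% and 4.72% of all genes. The lower one was THBS1, which encodes the activator thrombospondin, with 11.41, 11.29 and 11.49 in D319N, 11.96, 11.80 and 11.76 in Y261A, and 11.52, 11.56 and 11.56 in vector. D319N against Y261A gave log2 -0.44 for it (adjusted p = 0.00504), and neither mutant passed against vector (-0.15 in D319N and 0.29 in Y261A).

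Of 21 other ligand and receptor genes, 6 rose and 1 fell in D319N against vector, beside 8.93% and 7.66% of all genes, with a median of 0.03. INHBA, an activin subunit whose product also signals through SMAD3, rose most, by log2 1.89 ± 0.15 SE (adjusted p = 0.000204), with 7.55, 7.26 and 7.39 in D319N, 6.17, 6.20 and 6.02 in Y261A, and 5.22, 5.50 and 5.81 in vector. In Y261A its difference of 0.62 did not pass (adjusted p = 0.205), although no array overlapped vector. FSTL3, an activin antagonist (0.80), BMPR2, a BMP receptor (0.63), and ACVR1, a type I receptor (0.36), rose in D319N. The receptor-associated gene TGFBRAP1 fell (-0.31). None of the 21 passed in Y261A in limma, and 5 were at an unadjusted p under 0.05, beside 10.4% of all genes. Of these 5, INHBA and FSTL3 (0.17) were higher, and TGFBRAP1 (-0.20), ENG (-0.17) and GDF15 (-0.17) were lower. Between the mutants 5 were higher in D319N and none lower, beside 9.92% and 4.72% of all genes.

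Of 26 other SMAD and SMAD regulator genes, 8 rose and 3 fell in D319N against vector, beside 8.93% and 7.66% of all genes, with a median of 0.08. SKIL, a repressor of SMAD activity that TGF-beta induces, rose by log2 1.35 (adjusted p = 4.72e-05), with 8.18, 8.11 and 8.12 in D319N, 7.17, 7.17 and 6.93 in Y261A, and 6.87, 6.81 and 6.68 in vector. PMEPA1, another induced inhibitor (0.80), FKBP1A, which binds the type I receptor (0.77), and the ubiquitin ligase SMURF2 (0.61) rose, while the ligase NEDD4L fell (-0.36). SMAD2 (0.04, adjusted p = 0.713) and SMAD4 (0.05, adjusted p = 0.679), named after their values were seen, did not pass. In Y261A none of the 26 passed in limma, with 5 at an unadjusted p under 0.05 (10.4% of all genes). Of these 5, SKIL (0.30) and PMEPA1 (0.23) were higher, and SMAD1 (-0.06), SMAD2 (-0.18) and NEDD4L (-0.19) were lower. Between the mutants 9 were higher and 2 lower in D319N, beside 9.92% and 4.72% of all genes.

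Genes listed as TGF-beta and SMAD3 targets, which include LTBP2 and SMAD7 and share ITGB6, THBS1, SKIL and PMEPA1 with the lists above, gave 14 rises and no fall among 26 measured in D319N against vector, where 8.93% of all genes rose and 7.66% fell, with a median of 0.29. On the log2 scale LOX, a collagen crosslinking enzyme, rose by 2.29, ANGPTL4, a secreted lipase inhibitor, by 1.90 and JUNB, an AP-1 factor, by 1.35. TGFBI, an adhesion protein of the matrix, rose 2.15-fold. CDKN2B (0.14) and CDKN1A (0.06), the cell cycle inhibitors of the list, and the muscle-type gene TAGLN (0.00) did not pass. CDKN2B averaged 5.14 in D319N and 5.00 in vector, close to the background mean (4.85), so its row may not show a change. TAGLN had an identical value on all D319N and vector arrays (6.71), as median polish can return, so its spread may be understated. ITGB6 was the 1 gene of the 26 that rose in Y261A, beside 0.138% of all genes. There 12 were at an unadjusted p under 0.05 in limma, as 10.4% of all genes were. Of these 12, LOX (-0.19), BHLHE40 (-0.18) and VIM (-0.15) were lower and the rest higher. BHLHE40 and VIM were named after their values were seen. Between the mutants 15 were higher and 1, THBS1, lower in D319N, beside 9.92% and 4.72% of all genes. Of 10 BMP target genes, HEY1 (0.26), ID1 (0.30) and BAMBI (0.09) rose in D319N, where 8.93% of all genes did. None of the 10 passed in Y261A in limma, with none at an unadjusted p under 0.05, beside 10.4% of all genes.

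**Figure D3:**
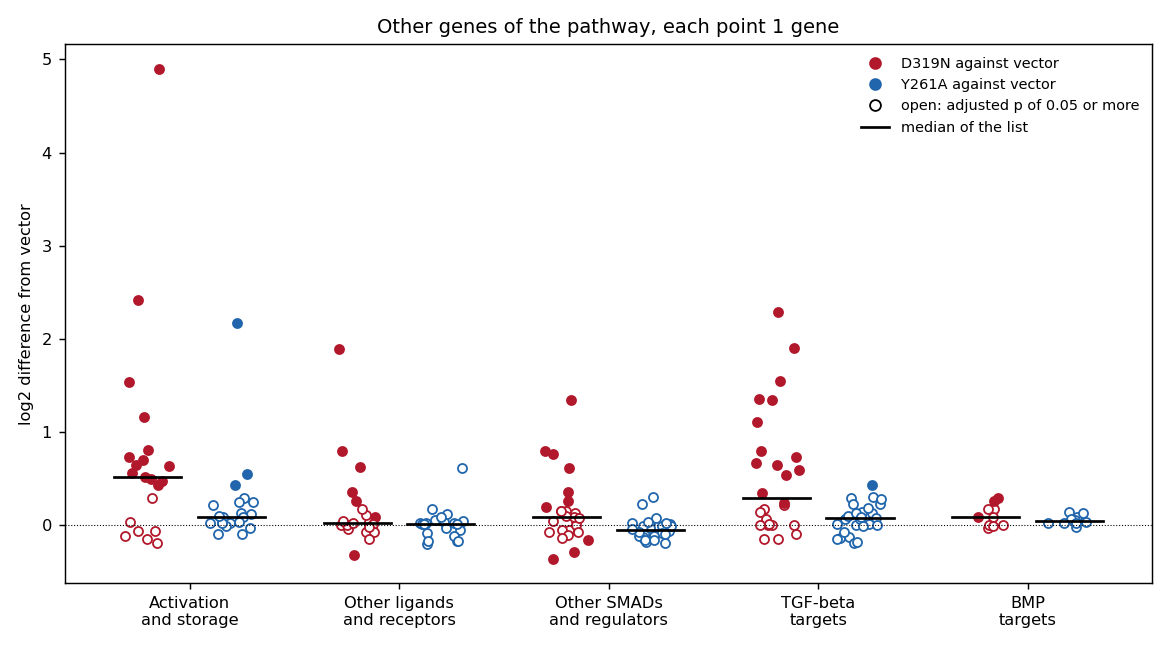
Log2 difference from vector (vertical axis) of the genes of 5 lists, each point 1 gene, D319N left of Y261A within each list. Filled points passed at an adjusted p under 0.05 and bars are list medians, which in D319N are 0.52 for activation and storage, 0.29 for TGF-beta targets and 0.03 to 0.09 for the other lists.

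Markers of other cell types moved in part with these genes. Of 9 measured fibroblast markers of 10 listed, 3 rose in D319N (POSTN, DCN and FAP), beside 8.93% of all genes. In Y261A 2 rose (DCN and FAP), beside 0.138% of all genes. The summed linear signal of the 9 was 849 to 895 in D319N, 502 to 520 in Y261A and 442 to 447 in vector. The fibroblast genes COL1A1 (6.76 in each group), COL1A2 (5.46, 5.60 and 5.53 in D319N, Y261A and vector) and PDGFRA (4.32, 4.38 and 4.35, under the background mean) did not pass in either mutant. COL1A1 had an identical value on all D319N and vector arrays, as median polish can return. None of 5 leukocyte or 5 endothelial markers passed in limma in any comparison. At most 1 was at an unadjusted p under 0.05, as 28.5% of all genes were in D319N against vector and 34.4% in D319N against Y261A. The leukocyte sum was 267 to 273 in D319N, 271 to 280 in Y261A and 282 to 292 in vector, with PTPRC, the defining leukocyte gene, at 2.97 in each group, under the background mean. The endothelial sum was 165 to 174 in D319N, 171 to 184 in Y261A and 166 to 180 in vector. The part of other cells in the rises was not tested, and in bulk RNA more cells of a type and more RNA per cell cannot be told apart.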

How the data were processed

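RNA of 9 samples was hybridized to Affymetrix whole-transcript arrays. The deposited values are log2 RMA signals, which the authors produced by RMA in Expression Console 1.4 (Affymetrix), per the submitters' processing notes. No build for the array is stated in the sources used here. No further normalization was applied. Arrays have no counts behind a value, and their number limits the precision.

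Of 70523 rows, 1530 were control probe sets. Rows with 1 gene symbol in the platform annotation (23781) were used, 306 symbols were updated through a RefSeq table for GRCh38.p14, and the row with the highest mean stood for each of 22411 genes. Group means were fitted with limma 3.58.1 over the 9 arrays together, in R 4.3.3 (6 residual and 1.23 prior degrees of freedom, eBayes). P-values were adjusted by Benjamini-Hochberg over all genes of a comparison, and adjusted p under 0.05 was called. The fit was tested on simulated data. Errors are SE of a difference unless named SD (n = 3).

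The members and lists were chosen with earlier results of these data known. Named were the 10 members, up to 4 genes of each other list with the smallest p per comparison, and for each called member the 3 nearest genes. Genes named outside this rule, among them TGFB3, SMAD2, SMAD4, CDKN2B, CDKN1A, TAGLN and further integrins, were chosen after their values were seen. Alternatives are given in the closing section. The level of the induced transcript is not reported here.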

Additional observations from a re-analysis of the deposited data

How the results depend on the processing

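All 9 members that passed in D319N against vector stayed higher under each of 21 alternatives, which were 9 fits without 1 array and 12 other settings, and so did LTBP1 in Y261A. Leaving out 1 array gave 7 to 9 members that passed in D319N against vector, 7 to 9 in D319N against Y261A and 0 to 1 in Y261A against vector. Over all genes it gave 2523 to 4572 calls in D319N against vector (3718 with all arrays), 1941 to 5302 in D319N against Y261A (3281) and 9 to 133 in Y261A against vector (79). Same-numbered arrays deviated from their group means with correlations of -0.45 to 0.21, beside -0.48 to 0.60 for differently numbered arrays. With 3 arrays a group these values cannot decide whether the numbers pair the samples, and the labels do not say. With the replicate number as a block 7 members passed in each D319N comparison and 0 in Y261A against vector, where 13 genes passed. Among all genes 3063 passed with the block in D319N against vector and 2490 in D319N against Y261A. Without both D319N replicate 2 and Y261A replicate 3, 7979 genes passed in D319N against vector, 157 in Y261A against vector and 6259 in D319N against Y261A. With array weights these counts were 11631, 988 and 10403, and 5 members passed in Y261A. In Y261A against vector 45 genes passed with arrays centred on their median, 134 after quantile normalization and 19 with adjustment over all rows. A spread floor for tied rows set before moderation turned it into 1 common spread for all genes (infinite prior degrees of freedom), and gave 293. With the floor on tied rows alone and the prior of the reported fit, added after seeing the data, 16 genes passed there, and 7, 1 and 6 members passed in D319N against vector, in Y261A against vector and between the mutants. This setting gave 2805 calls over all genes in D319N against vector and 2429 between the mutants. In D319N against Y261A 1933 passed with only the 6 arrays compared. Among the 9 members TGFBR2 and LTBP3 passed under the fewest settings, and adjusted over all rows they missed in D319N against vector (adjusted p = 0.0523 and 0.0755).

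The differences that turned sign had not passed with all arrays. In Y261A against vector LTBP4 was -0.0076 without both arrays and -0.0051 when centred, LTBP3 was 0.032 after quantile normalization and 0.0094 with array weights, and SMAD3 was 0.024 without both arrays, 0.041 after quantile normalization and 0.061 with array weights. Without 1 array TGFBR2 ran from -0.032 to 0.081, LTBP3 from -0.065 to 0.0047, LTBP4 from -0.0076 to 0.022 and SMAD3 from -0.054 to 0.024. After quantile normalization LTBP4 was -0.013 in D319N against vector and -0.061 in D319N against Y261A, where it ran from -0.013 to 0.016 without 1 array. The cause was not tested. TGFB2 and SMAD7 averaged 0.48 and 1.14 above the background mean in vector, which limits how far a fold can be read. The same limit holds for DCN, FBN1 and HEY1 (4.95 in vector), near the background mean of 4.85, and for POSTN (3.32 in vector), under it.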

Other observations

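The genes most like each member that passed were found by the Euclidean distance between their 9 array values, each centred on the gene's own vector mean. This describes likeness over 9 arrays in 3 groups and carries no test. Nearest to LTBP1 were the WNT inhibitor gene DKK1 (distance 0.22, 1.55 in D319N and 0.57 in Y261A, as log2 differences from vector), then SRPX (0.38) and the protease gene FAP (0.39). Nearest to TGFB1 were GRN, which encodes the growth factor progranulin (0.13), MAGED2 (0.14) and SPX (0.15). TGFB2 was nearest to GLIPR1 (0.14), TXNIP (0.17), which encodes an inhibitor of thioredoxin, and ADGRG2 (0.17). For TGFBR1 the nearest were ZC3H12C (0.17), the matrix protease gene MMP14 (0.18) and CTSC (0.19). For LTBP2 they were CENPT (0.10), NDRG1 (0.11) and the AP-1 gene JUN (0.13). SMAD3 was nearest to SELENOS (0.09), ABCC3 (0.09) and the tetraspanin gene CD151 (0.10). The smaller changes of TGFBR2, LTBP3 and SMAD7 lay nearest to CNIH4 (0.05), SUSD6 (0.06) and FAM228B (0.06). Distances are smaller for genes that changed less, so they are not compared between members.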
